A study of Mus musculus with 15 samples.

Results

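The interferon-stimulated genes are the genes that cells switch on after type I or type II interferon binds its receptors. The set is a list of 39 mouse genes, and its regions were the open chromatin regions whose nearest protein-coding gene body, within 100 kb, was one of them. Of the 39 genes, 37 were protein-coding in the gene table of 21631 genes, while Mx1 and Mx2 are transcribed pseudogenes there and are given apart. The regions of the set numbered 73 of 65409 and lay at 32 genes. Isg15, Oas3, Ifit1, Ifi44 and Cxcl10 had no region assigned to them.

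Type I interferons signal through receptor-bound kinases to a complex that holds STAT2 and IRF9 and binds a DNA element called the ISRE in the promoters of these genes, while interferon gamma acts mainly at GAS elements. IRF8 belongs to the same family of DNA-binding factors and, with the myeloid factor PU.1, binds composite ETS-IRF elements. In the healthy brain, microglia, the resident macrophages, keep most of these genes at a low level, and a fraction of microglia with high levels is known from infected, ageing and amyloid-bearing brain.

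Open chromatin, which a transposase cuts in ATAC-seq, was mapped in FACS-sorted microglia of C57BL/6 mice, and a peak list of each of 15 libraries was available. WT and IRF8KO microglia came from untreated animals aged 9 (P9) or 14 (P14) days after birth, with 2 and 3 libraries at P9 and 2 and 2 at P14. At 10 months, 2 libraries each came from WT mice, from 5xFAD microglia without the amyloid dye (X04 negative) and from 5xFAD microglia carrying it (X04 positive), and all mice of this age, WT included, had received MetoxyX04. The 5xFAD line carries human transgenes with familial Alzheimer's mutations under a neuronal promoter, which limits it to amyloid made by neurons. The labels did not describe the deleted part of Irf8, the number of animals behind a library or whether libraries of a group came from separate brains, so p-values measure the spread between libraries, which may be technical.

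Peaks were ranked within each library by the authors' −log10 p, and a region was called strong where its peak was among the 30000 top peaks. The rank score is log2 of 126070, the length of the shortest list, over the rank, so a difference of 1 is a change of rank by a factor of 2, and regions beyond that length scored 0. "Higher" below means a larger rank score, closer to the top of the list. A rank is relative to the other peaks of its library, and in bulk cells fewer cells with an open region cannot be told apart from less opening in each cell. The −log10 p at rank 30000 was 39.07 and 54.31 in WT and 73.4 to 80.65 in IRF8KO at P9, but 61.78 and 68.19 in WT and 22.83 and 26.55 in IRF8KO at P14, so this measure of library strength moved with genotype in opposite directions at the 2 ages.

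Of 14 microglia marker genes, 13 had a strong region in some library and 11 to 13 had one in every library of a group; P2ry13 had none. Summed strong regions of the list were 47 and 51 in WT and 35 to 42 in IRF8KO at P9, and 51 and 53 against 42 and 47 at P14. For 10 markers of border-associated macrophages, which live in the coverings of the brain, the sums were 11 and 12 in WT against 19 to 22 in IRF8KO at P9 and 12 and 13 against 21 and 25 at P14, with Cd209f at 0. For 8 monocyte markers the sums were 7 to 9 in WT and 6 to 8 in IRF8KO at these ages, with Ly6c2 at 0. For 10 neutrophil markers they were 3 to 4 and 3 to 5, with S100a8, Ly6g, Mpo, Elane, Camp and Ngp at 0. Lists of other brain cells had fewer strong regions in IRF8KO without overlap at either age. For 10 oligodendrocyte markers the sums were 13 and 15 in WT against 8 to 9 in IRF8KO at P9, and 13 and 13 against 6 and 8 at P14, with Olig2 and Sox10 at 0. Those of 9 astrocyte markers were 13 and 14 against 10 to 11, and 13 and 13 against 10 and 12, with Fgfr3 at 0. Those of 10 endothelial and mural markers were 14 and 16 against 11 to 13, and 14 and 16 against 10 and 11, with Rgs5, Kcnj8 and Vtn at 0. Those of 10 neuronal markers were 3 and 4 against 1 to 2, and 4 and 4 against 3 and 3, with Gad1 at 0. The 12 markers of lymphocytes and plasmacytoid dendritic cells gave 9 and 9 against 7 to 9, and 9 and 10 against 8 and 10, which touched or overlapped, with Cd3e and Cd8a at 0. The part of these differences in the results below was not tested.

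Promoter sequences from RefSeq (GRCm38.p6, the assembly that mm10 names) were at hand for 28 of the 39 genes, covering 250 bases before to 50 after 33 start sites. The ISRE core, GAAANNGAAA on either strand, occurred at 20 of the 28 genes (71.4%), against 4.02% of 26794 genes with a promoter in the table. The GAS letters TTCNNNGAA occurred at 9 genes (32.1%, against 9.61%), the AP-1 letters TGANTCA at 9 (32.1%, against 9.03%) and the ETS-IRF letters GGAANNGAAA at 4, Gbp5, Ifi44, Igtp and Stat2 (14.3%, against 3.18%). A match describes letters and is not a measured binding site. The stretches below end at the base before the start site and belong to members with a called region, or the best ranked region of the set, within 1 kb of that start site. They are written 5′ to 3′ on the strand of the gene, with ISRE cores, and at Igtp also the ETS-IRF letters, in capitals.
Ifit3 (chr19:34583329-34583528, plus strand): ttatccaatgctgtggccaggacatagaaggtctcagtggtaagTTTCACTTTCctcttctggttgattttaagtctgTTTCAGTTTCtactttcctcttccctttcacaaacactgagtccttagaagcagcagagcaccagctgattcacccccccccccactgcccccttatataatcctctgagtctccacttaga
Gbp3 (chr3:142559924-142560043, plus strand): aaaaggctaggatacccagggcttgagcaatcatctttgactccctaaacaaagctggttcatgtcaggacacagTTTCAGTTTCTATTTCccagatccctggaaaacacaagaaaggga
Gbp7 (chr3:142530216-142530335, plus strand): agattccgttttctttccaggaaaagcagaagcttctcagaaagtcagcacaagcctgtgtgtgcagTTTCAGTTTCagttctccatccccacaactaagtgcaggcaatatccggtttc
Gbp2 (chr3:142620543-142620662, plus strand): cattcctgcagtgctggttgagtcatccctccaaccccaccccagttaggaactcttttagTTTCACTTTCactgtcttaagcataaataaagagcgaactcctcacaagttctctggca
Igtp (chr11:58199436-58199555, plus strand): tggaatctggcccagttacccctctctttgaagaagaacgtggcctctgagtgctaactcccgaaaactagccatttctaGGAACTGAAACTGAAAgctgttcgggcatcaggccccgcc
Trim30a (chr7:104465194-104465313, minus strand): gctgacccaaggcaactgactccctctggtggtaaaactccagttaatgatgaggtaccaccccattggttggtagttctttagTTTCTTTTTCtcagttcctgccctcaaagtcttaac
Ifi207 (chr1:173741810-173741929, minus strand): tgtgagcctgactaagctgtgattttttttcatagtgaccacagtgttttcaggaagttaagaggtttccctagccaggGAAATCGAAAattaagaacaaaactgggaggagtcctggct
Rsad2 (chr12:26456453-26456572, minus strand): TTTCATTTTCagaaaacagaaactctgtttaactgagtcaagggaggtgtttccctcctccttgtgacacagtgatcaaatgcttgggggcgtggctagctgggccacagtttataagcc
In Ifit3 the cores began 156 and 122 bases upstream of the start site, and in Gbp3 overlapping cores began at 45 and 39 bases. Gbp7 had its core at 53 bases, Gbp2 at 59, Ifi207 at 41, Trim30a at 36 and Rsad2 at 120. The ETS-IRF letters at Igtp began at 40 bases and ran into the ISRE core at 34 bases, so these matches share bases.

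Between IRF8KO and WT microglia, member regions moved both ways. The start-site regions of Ifit3 and Ifit2 and regions of Usp18, Isg20 and Gbp3 fell in rank in IRF8KO, whereas regions of Ifi204, Ifi207, Rsad2, Oas2 and Dhx58 rose. A called region was present at 19 of the 28 member genes that could be tested (67.9%), near the 61.1% of 13069 genes with a tested region, which had 2.74 tested regions per gene against 1.79 for members. Over both ages, limma with Benjamini-Hochberg adjustment over 37507 regions called 11 of 50 member regions higher in IRF8KO (22%) and 16 lower (32.0%), where 25.3% and 25.5% of all regions were called. The higher share was thus near that of all regions. The lower share was above that of all regions, but the count of 16 ranged from 12 to 17 with each library left out. Member shares were not tested against those of all regions, so the difference is a description and not a trait of the members. The member median was −0.19 against 0.0 for all regions. Testing required a strong peak in at least 2 of the 9 libraries, so a region could pass through the genotype where it scored higher alone. This was so for 8 of the 11 higher and 5 of the 16 lower calls. The 8 were the higher regions of Oas2, Rsad2, Rtp4, Gbp2, Iigp1 and the Ifi207 start site, and both higher regions of Gbp5. The 5 were the Isg20 region 855 bp from a start site, both called Usp18 regions and the 2 Gbp3 regions away from its start sites. The counts of calls, and the ranks and adjusted p values of these regions, are therefore a description. No region passed at 4 genes with regions (Stat2, Eif2ak2, Oas1a and Cmpk2).

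Among regions within 1 kb of a gene end, 6 of 24 member regions were higher (25.0%) and 8 lower (33.3%), against 13.5% and 11.3% of 10055 such regions. By gene, 7 had calls in the higher direction alone, 10 in the lower direction alone, and Rtp4 and Gbp2 had both. Ifih1, Zbp1, Oasl1, Bst2, Parp14, Xaf1, Irgm1, Ifi35 and Ifi27 were tested without a call over both ages. The ranks of all IRF8KO libraries lay above those of all WT libraries at both ages for 12 of the 50 tested member regions (24.0%) and below them for 13 (26.0%), near the 22.3% and 22% of all regions.

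**Figure D1:**
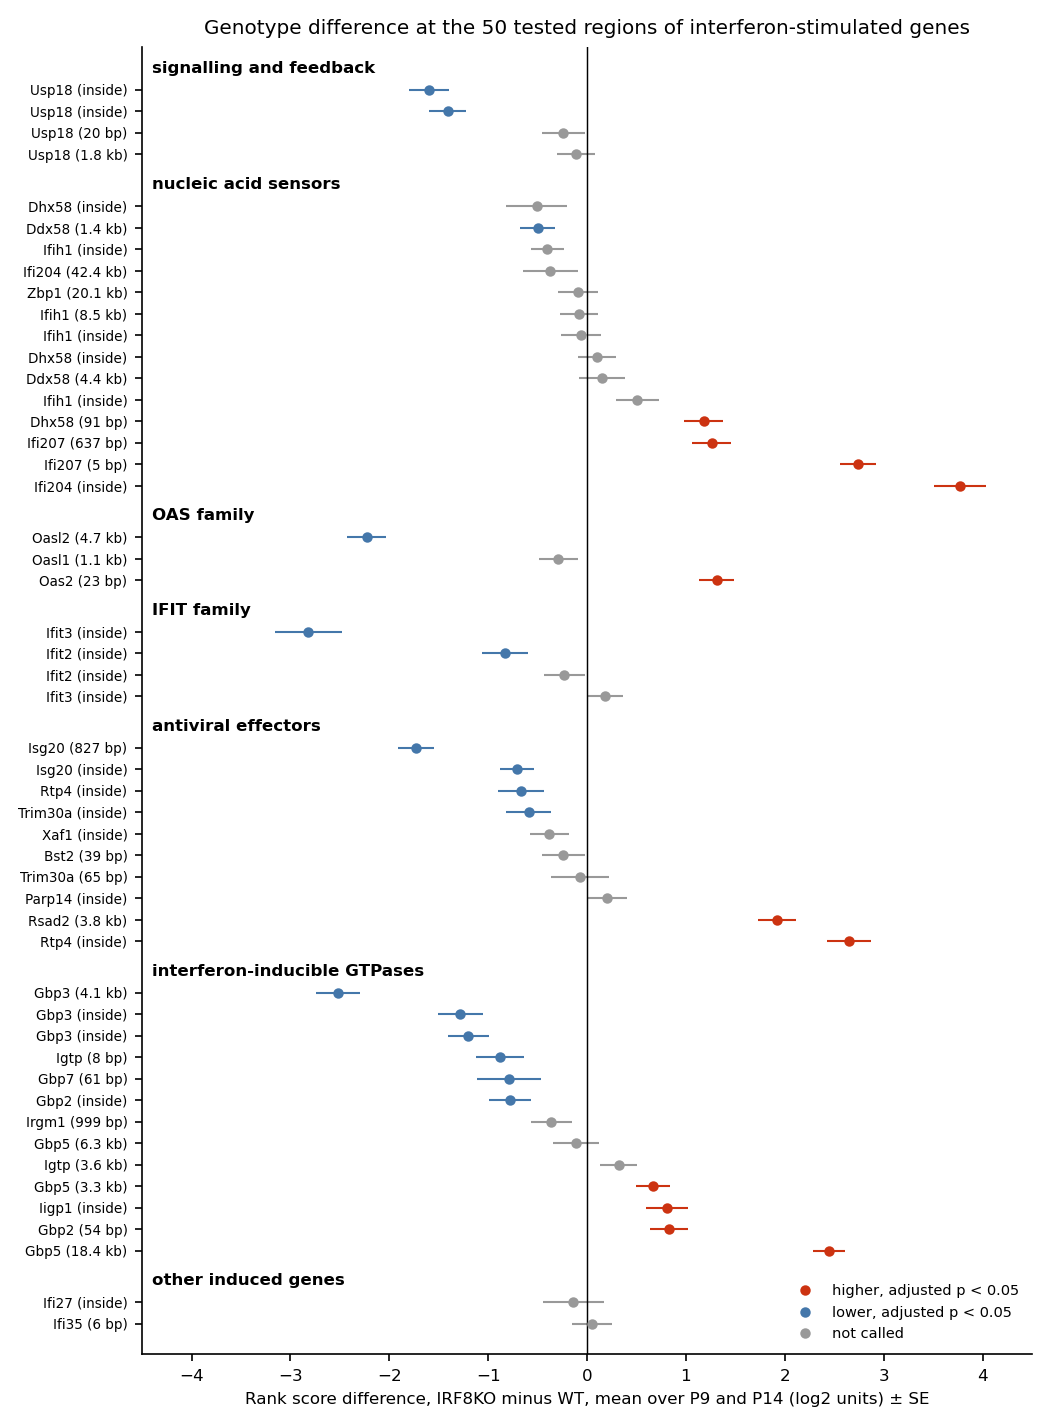
Each point is one of the 50 tested member regions, grouped by role, with the rank score difference (IRF8KO minus WT, mean over P9 and P14, log2 units) on the x axis and bars for its standard error. The differences run from −2.82 at Ifit3 to 3.77 at Ifi204, and calls in both directions occur among the sensors, the OAS family, the antiviral effectors and the GTPases.

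Among signalling genes, Usp18, the protease that removes ISG15 from proteins and dampens the type I receptor, had 2 called regions, both inside the gene and both lower in IRF8KO. The first (chr6:121251178-121251578) ranked 19746 and 15415 in WT and 39225, 55163 and 42683 in IRF8KO at P9. At P14 it ranked 23447 and 14896 in WT and 53844 and 82290 in IRF8KO. The groups did not overlap at either age, and the score fell by 1.6 ± 0.20 (SE, adjusted p = 7.6e-07). The second region (chr6:121261283-121261683) fell by 1.41 ± 0.19 (adjusted p = 2.5e-06). At the end of the gene with the lower coordinate, a region 20 bp outside Usp18 ranked 5098 to 9717 in all WT libraries of the juvenile ages. In all IRF8KO libraries of these ages it ranked 7567 to 9977, a difference of −0.24 ± 0.22 (adjusted p = 0.4). The calls at Usp18 were therefore inside the gene and not at this end. Gene bodies carry no strand here, so whether this end holds the start site was not determined. Both called regions entered the test through WT alone.

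The start site of Stat2, a subunit of the ISRE-binding complex, had a strong region in all 15 libraries, which lay nearer to Apof and was not a member by the rule. It differed by 0.24 ± 0.37 between genotypes (adjusted p = 0.63). Isg15, the ubiquitin-like modifier, has 3 ISRE cores in its promoter, and no catalogued region lay within 1 kb of its start site.

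Among the nucleic acid sensors, the largest gain was at Ifi204, which with Ifi207 belongs to the PYHIN family of DNA-binding proteins. The Ifi204 region (chr1:173766850-173767250) lay 19 bp inside the upper end of the gene. Its ranks were 20198 and 23643 in WT and 3463, 2360 and 1475 in IRF8KO at P9, and 36703 and 29573 in WT against 1518 and 1899 in IRF8KO at P14. Every IRF8KO library placed it among the top 3463 peaks and no juvenile WT library among the top 20000. The score difference was 3.77 ± 0.26 (adjusted p = 1.7e-10), a 13.6-fold change of rank. The other tested Ifi204 region, 42.4 kb from the gene, ranked 3685 and 3113 in WT and 7930, 7111 and 6694 in IRF8KO at P9, and 6728 and 6007 against 8731 and 2875 at P14. It was lower in IRF8KO at P9 (−1.09 ± 0.38, adjusted p = 0.027), overlapped at P14 and had no call over both ages (−0.37 ± 0.28, adjusted p = 0.29).

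Ifi207 gained at its promoter, whose sequence is given above. The region over the start site (chr1:173741636-173742036) ranked 97653 and 87673 in WT and 15899, 12633 and 11618 in IRF8KO at P9. At P14 it ranked 118748 and 85518 in WT and 14393 and 17127 in IRF8KO. It was thus strong in every IRF8KO library and in neither WT group, with a difference of 2.74 ± 0.18 (adjusted p = 6.8e-11). A neighbouring region 659 bp from the start site differed by 1.26 ± 0.20 (adjusted p = 1.6e-05), but by −0.58 when peaks were ranked by the authors' fold. Ifi204 and Ifi207 are paralogs, and the lists do not show how reads matching both were placed, so their values are uncertain.

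Dhx58, which encodes the RIG-I-like regulator LGP2, was higher at a region 91 bp from the gene, with P9 ranks of 35282 and 24061 in WT and 11943, 13134 and 10331 in IRF8KO. P14 ranks were 31404 and 36478 against 20631 and 12789, again without overlap, and the difference was 1.18 ± 0.20 (adjusted p = 4.5e-05). Ddx58, the gene of the RNA sensor RIG-I, was lower 1.39 kb past the gene. That region ranked 21340 and 22860 in WT and 27188, 34198 and 38956 in IRF8KO at P9, and 31472 and 24359 against 34147 and 40395 at P14. The groups were apart by small margins (−0.50 ± 0.18, adjusted p = 0.022), and the call was lost without WT P9 replicate 1, IRF8KO P9 replicate 3, WT P14 replicate 2 or IRF8KO P14 replicate 2 (adjusted p 0.053 to 0.1). Ifih1, the gene of the RNA sensor MDA5, had 4 tested regions and no call over both ages. At P9 alone, an Ifih1 region was called lower in IRF8KO. Another Ifih1 region ranked above WT in all IRF8KO libraries at both ages, without a call over both ages. Its start-site region ranked 10320 to 13651 in WT and 10484 to 16240 in IRF8KO (−0.06 ± 0.20, adjusted p = 0.83). Zbp1, a sensor of Z-form nucleic acid, differed by −0.09 ± 0.20 (adjusted p = 0.74) at a region 20.1 kb away. The start site of Eif2ak2, the gene of the RNA-activated kinase PKR, had a strong region in all 15 libraries that was assigned to Gm26637 and differed by 0.51 ± 0.19 (adjusted p = 0.034).

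In the OAS family, whose enzymes make a messenger that activates RNase L, the called regions went in opposite directions. A region 23 bp from Oas2 ranked 37292 and 31128 in WT and 14364, 18267 and 18825 in IRF8KO at P9, and 62977 and 48115 against 20473 and 15823 at P14. All IRF8KO libraries held it among the strong peaks and no juvenile WT library did, a difference of 1.31 ± 0.18 (adjusted p = 3.7e-06). A region 4.7 kb past Oasl2 and 6.3 kb from the Oasl1 start site (chr5:114916742-114917142) went the other way. Its ranks were 3229 and 4037 in WT and 20450, 18299 and 18503 in IRF8KO at P9, and 4021 and 4113 against 16030 and 17776 at P14. The 4 WT ranks stayed within 3229 to 4113, and the score fell by 2.23 ± 0.20 (adjusted p = 1.1e-08). Oasl1 and Oasl2 encode OAS-like proteins with ubiquitin-like ends, and which of them the region belongs to cannot be read from distance. Oas1a had 1 region, strong only in X04 positive replicate 2, and Oas3 had none.

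The IFIT genes encode proteins that bind foreign RNA and block its translation, and both tested members lost rank at their start sites. Ifit3 held the best ranked member region of every juvenile WT library. This region (chr19:34583182-34583582, centred 147 bp from the start site and covering the ISRE cores shown above) ranked 1397 and 733 in WT and 7789, 10427 and 5873 in IRF8KO at P9. At P14 the ranks were 338 and 811 in WT and 4513 and 2514 in IRF8KO. It stayed strong in all 15 libraries, so the difference was one of degree, −2.82 ± 0.34 (adjusted p = 5.1e-07), or 7.05-fold in rank.

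The Ifit2 start-site region, whose promoter windows hold no ISRE core, ranked 3618 and 4719 in WT and 11442, 7460 and 7221 in IRF8KO at P9. At P14 it ranked 7048 and 5382 against 9621 and 9287. WT lay above IRF8KO at both ages by a smaller margin, −0.83 ± 0.23 (adjusted p = 0.0052). Away from the start sites, a region 4.96 kb from that of Ifit3 differed by 0.18 ± 0.18 (adjusted p = 0.45) and one 19.2 kb from that of Ifit2 by −0.23 ± 0.21 (adjusted p = 0.4). The start site of Ifit1 carried a region assigned to Ifit1bl2 with a difference of −0.11 ± 0.21 (adjusted p = 0.71), although the Ifit1 promoter has ISRE cores at 104 and 85 bases. The IFIT genes are paralogs, so reads shared between them make their values uncertain.

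**Figure D2:**
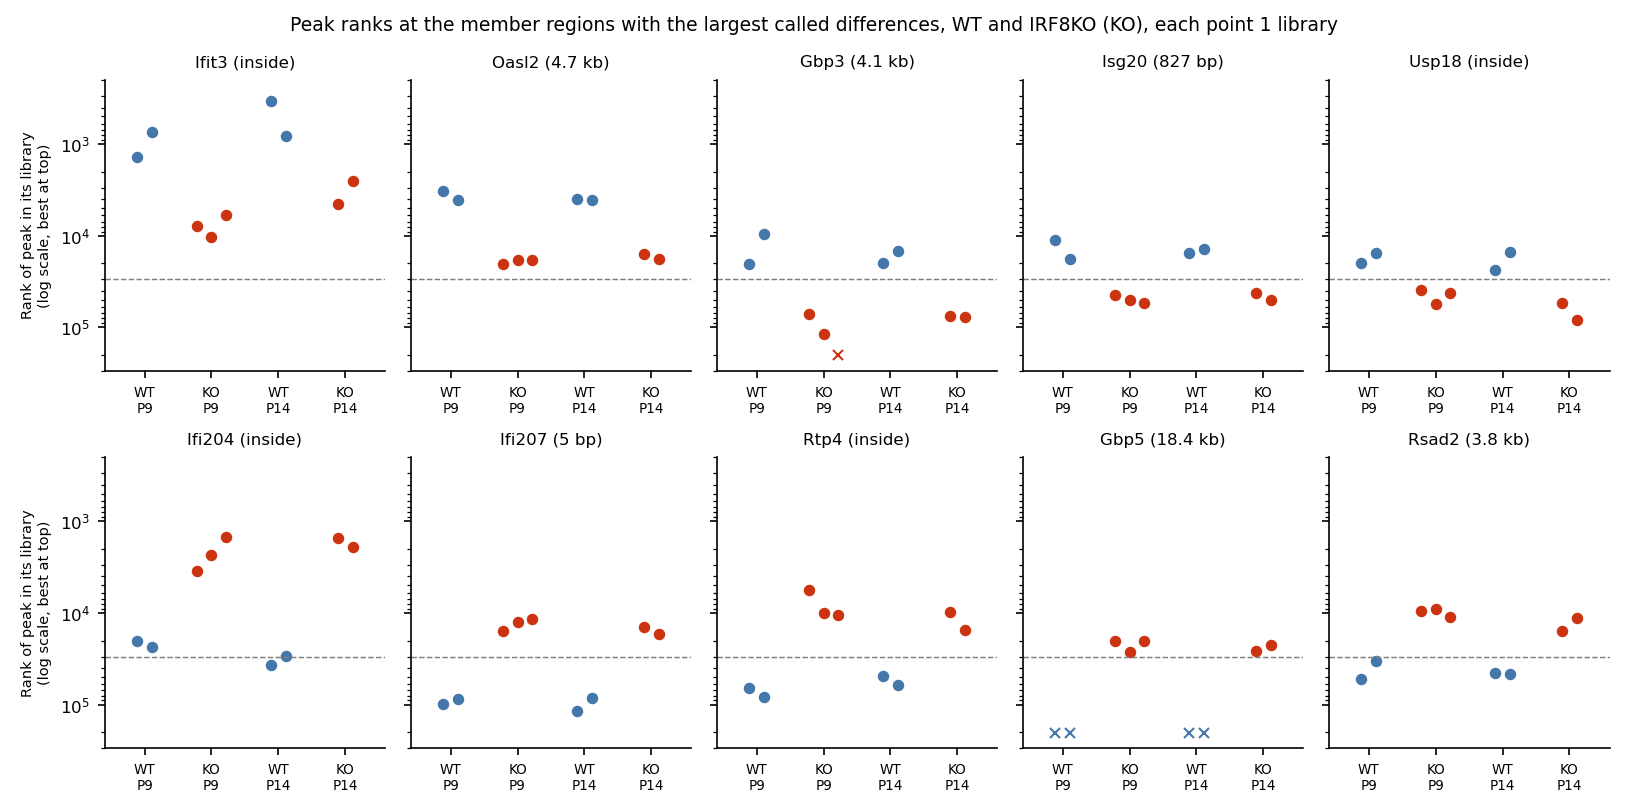
Rank of the peak in each juvenile library (log scale, best at the top, dashed line at rank 30000, crosses for no summit within 200 bp among the 126070 top peaks) for the leading called member regions. The Ifit3 region lies at ranks 338 to 1397 in WT and 2514 to 10427 in IRF8KO, and the Ifi204 region at 20198 to 36703 against 1475 to 3463.

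Among the antiviral effectors, Isg20, an RNA exonuclease, was lower at 2 regions. The one 855 bp from a start site ranked 11146 and 17963 in WT and 44455, 50396 and 54453 in IRF8KO at P9, and 15360 and 14050 against 42201 and 49942 at P14. It was strong in all WT and no IRF8KO libraries of these ages, with a fall of 1.73 ± 0.18 (adjusted p = 9.0e-08). The other, over the promoter, fell by 0.71 ± 0.17 (adjusted p = 0.0017).

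Rsad2 encodes viperin, an enzyme that makes a chain-terminating nucleotide, and its call was upward. A region 3.84 kb from its start site ranked 52347 and 33063 in WT and 9547, 9164 and 10949 in IRF8KO at P9. The P14 ranks were 45028 and 45821 in WT and 15690 and 11430 in IRF8KO. All 5 IRF8KO libraries had it as a strong peak and no juvenile WT library did (1.92 ± 0.19, adjusted p = 4.4e-08). The start-site region of Rsad2 was strong in 1 juvenile library, IRF8KO P9 replicate 1 at rank 28733, and was not tested at these ages.

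Rtp4, a receptor chaperone that restricts viruses, had calls in both directions within an annotated body of 94.0 kb. One region ranked 65916 and 82479 in WT and 5568, 9955 and 10527 in IRF8KO at P9, and 48856 and 61519 against 9658 and 15405 at P14. It was strong in the IRF8KO libraries alone (2.65 ± 0.22, adjusted p = 2.5e-09). The other fell by 0.67 ± 0.23 (adjusted p = 0.02) and lost its call without WT P9 replicate 2, IRF8KO P9 replicate 1, WT P14 replicate 1 or IRF8KO P14 replicate 1 (adjusted p 0.053 to 0.13).

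Trim30a encodes a ring-finger protein that restrains inflammatory signalling, and both its start sites had a strong region in every library. The first (sequence above) ranked 1309 to 3157 in juvenile WT and 1635 to 3031 in IRF8KO libraries and differed by −0.07 ± 0.29 (adjusted p = 0.87). The second ranked 3806 and 5417 in WT and 7295, 6703 and 8033 in IRF8KO at P9, and 4488 and 3957 against 5196 and 6677 at P14. It fell by 0.59 ± 0.23 (adjusted p = 0.041), a call lost in 7 of 9 fits with a library left out, all except those without WT P9 replicate 2 or IRF8KO P14 replicate 1 (adjusted p 0.053 to 0.14). Bst2, the gene of tetherin, which holds budding virus at the membrane, ranked 5222 to 9382 in WT and 6328 to 10325 in IRF8KO at its promoter (−0.24 ± 0.22, adjusted p = 0.4). The apoptosis-linked Xaf1 (−0.38 ± 0.20, adjusted p = 0.13) and the ADP-ribosyltransferase Parp14 (0.20 ± 0.20, adjusted p = 0.44) had no call either. The nucleotide kinase gene Cmpk2, next to Rsad2, had a promoter region at ranks 25351 to 46596 in the juvenile libraries, which did not enter the test.

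Mx1 and Mx2, dynamin-like antiviral GTPases whose Mx1 gene is defective in common laboratory strains, stood outside the assignment rule, and their regions were examined after their values were seen. A region 57 bp from Mx1 (chr16:97462763-97463163) ranked 2019 and 2821 in WT and 96609, 91687 and 97461 in IRF8KO at P9. At P14 it ranked 2588 and 4619 in WT and 112387 and 77039 in IRF8KO. It was among the top 4619 peaks of every juvenile WT library and at rank 77039 or beyond in every IRF8KO library, a fall of 5.03 ± 0.21 (adjusted p = 2.9e-13), or 32.8-fold in rank, larger than at any region assigned to a protein-coding member. At Mx2, a region 30 bp from the gene fell by 1.31 ± 0.26 (adjusted p = 0.00025) and one 907 bp away was higher by 1.26 ± 0.20 (adjusted p = 2.1e-05).

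The interferon-inducible GTPases, which attack the vacuoles of intracellular microbes, gave calls at 10 of 13 tested regions, 4 higher and 6 lower, where 25.3% and 25.5% of all regions were called. Gbp3, one of the guanylate-binding proteins, was lower at 3 regions. The region 4.1 kb past the gene (chr3:142577116-142577516) ranked 20186 and 9665 in WT and 71554, 119674 and nowhere within 200 bp in IRF8KO at P9. At P14 the ranks were 19905 and 14639 against 74824 and 77799. It was strong in all WT and in no IRF8KO libraries (−2.52 ± 0.22, adjusted p = 6.3e-09). The region within Gbp3 fell by 1.28 ± 0.23 (adjusted p = 7.4e-05), and the one 197 bp from its later start site by 1.20 ± 0.21 (adjusted p = 6.8e-05).

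Gbp5, which promotes inflammasome assembly, was higher in IRF8KO at 2 of its 3 tested distal regions. A region 18.4 kb from its start site had no summit within 200 bp in any juvenile WT library and ranked 20194, 26809 and 20119 in the P9 IRF8KO libraries and 25819 and 22418 in those of P14. By the stricter rule of strong in every library of one group and absent (no summit within 400 bp among the 126070 top peaks) in every library of the other, it was the only member region higher in IRF8KO at P9 (1 of 44, where 1.68% of all eligible regions passed) and at P14 (1 of 42, against 1.91%). No member was lower by that rule at either age, against 1.82% and 2.26% of all eligible regions. A second region, 3.29 kb from the start site, was higher by 0.67 ± 0.17 (adjusted p = 0.0026), and the third, 6.27 kb from it, differed by −0.11 ± 0.23 (adjusted p = 0.72). The Gbp5 start-site region itself ranked 29427 to 51141 in WT and 62450 to 80423 in IRF8KO, and with 1 strong juvenile library it was not tested.

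Gbp2 had calls both ways less than 1 kb apart. The region 54 bp from its start site ranked 61514 and 49124 in WT and 35639, 25078 and 43215 in IRF8KO at P9, and 52094 and 59130 against 22807 and 35587 at P14. It was higher in IRF8KO without overlap, by 0.83 ± 0.19 (adjusted p = 0.0012), although strong in only 2 libraries. The region 685 bp inside the gene fell by 0.78 ± 0.21 (adjusted p = 0.0043), a call lost without WT P9 replicate 2 (adjusted p = 0.051). The Gbp7 promoter region ranked 3906 and 1328 in WT and 3855, 4779 and 4464 in IRF8KO at P9, overlapping, and 1445 and 2584 against 3119 and 2920 at P14. It fell by 0.79 ± 0.32 (adjusted p = 0.044), which held in only 2 of 9 fits with a library left out, those without WT P9 replicate 1 or WT P14 replicate 2 (adjusted p 0.059 to 0.29 in the others), and was 0.82 when peaks were ranked by the authors' fold. These genes lie in a cluster of paralogs, with 141.1 kb from the start of Gbp5 to the end of Gbp2, and shared reads leave their values uncertain.

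Among the immunity-related GTPases, the Igtp promoter ranked 7251 and 6157 in WT and 9063, 6569 and 10030 in IRF8KO at P9, and 3547 and 6263 against 11605 and 13905 at P14. The groups overlapped at P9 and separated at P14, and the mean difference was −0.88 ± 0.24 (adjusted p = 0.0039). Iigp1 was higher in IRF8KO at a region inside the gene, with ranks of 45949 and 43748 in WT and 21470, 26661 and 25550 in IRF8KO at P9. Its P14 ranks were 40634 and 35353 against 33612 and 15263, and the difference was 0.81 ± 0.21 (adjusted p = 0.0025). Irgm1 differed by −0.36 ± 0.21 (adjusted p = 0.17) at a region 999 bp from its start site.

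Of the remaining genes, Ifi27, which encodes a mitochondrial protein, ranked 3922 to 6975 in WT and 2518 to 9679 in IRF8KO at a region inside the gene (−0.14 ± 0.31, adjusted p = 0.75). The chemokine gene Cxcl10 carried a start-site region assigned to its neighbour Art3 that fell by 0.51 ± 0.18 (adjusted p = 0.022). Ifi44 had neither an assigned region nor one within 1 kb of its start site.

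Taking start sites in place of gene assignment, 22 of the 28 genes with a promoter sequence had a region within 1 kb, and 18 of these had a tested one. Each gene was counted by its tested region nearest to a start site, and as having a core if any of its promoter windows did. Of the 14 with an ISRE core, 3 were higher in IRF8KO (Eif2ak2, Gbp2 and Ifi207), 6 were lower (Cxcl10, Gbp3, Gbp7, Ifit3, Igtp and Trim30a) and 5 were neither (Bst2, Ifih1, Ifit1, Irgm1 and Stat2). Of the 4 without the core, Ifit2 and Isg20 were lower and Ifi35 and Xaf1 were neither. Trim30a was counted through its second start site, while the region at its first had no call. Gbp3 was counted through its later start site, whose own window holds no core. Gbp2 was counted through its higher region, although the one 685 bp inside the gene was lower. Of all tested regions within 1 kb of a gene end, 13.5% were called higher and 11.3% lower.

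Whether a region was strong at all was compared by an exact permutation of genotype labels inside each age, two-sided, over 60 arrangements, whose smallest p is 0.0167 (adjusted p = 0.021). Of 12 member regions able to reach it, 6 were higher in IRF8KO (Gbp5, Ifi207, Oas2, Rsad2 and Rtp4) and 4 lower (Gbp3, Isg20 and Usp18), where 39.4% and 39.1% of 6326 such regions were called. All of these member calls were among the regions that passed through 1 genotype alone. Of the 6326 regions, 78.5% reached the smallest p. The p largely restates how the regions were selected, so the counts are a description. Leaving out any one of the 5 P9 libraries brought both counts to 0, since fewer arrangements remain. Strong regions summed over all members were 36 and 39 in WT and 39 to 41 in IRF8KO at P9, and 35 and 38 against 38 and 39 at P14, so the totals touched or overlapped.

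At the separate ages the calls were alike in number. At P9, 12 member regions were higher (all regions 21.5%) and 11 lower (20%), and at P14 9 were higher (20.6%) and 14 lower (21.5%), of 50 each. The 14 fell to 9 without WT P14 replicate 2. The difference between the ages was tested as an interaction, in which limma called 0 member regions in either direction (0.275% higher and 0.219% lower among all regions), with 6 members at an unadjusted p under 0.05 (14.7% of all regions).

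Ranks separated the genotypes in opposite directions at the ages for 4 of the 50 member regions, single regions of Oasl1, Trim30a, Ddx58 and Ifi35. The share of all regions that did so was not counted, so these 4 are a description and not a trait of the members. Library strength also moved with genotype in opposite directions at the ages, and its part was not tested. The Ifi35 promoter ranked 14472 and 14212 in WT and 9542, 7524 and 7253 in IRF8KO at P9, but 7996 and 10785 in WT and 16990 and 14139 in IRF8KO at P14. IRF8KO was thus above WT at P9 and below it at P14, with an interaction of −1.57 (adjusted p = 0.087). The Oasl1 region, 1.16 kb from the start site, ranked 19654 and 22867 in WT and 17574, 15536 and 17121 in IRF8KO at P9, and 17027 and 18022 against 44767 and 24835 at P14 (interaction −1.27, adjusted p = 0.14). Ifi204 differed by 3.25 at P9 and 4.28 at P14, and Ifit3 by −2.95 and −2.69.

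**Figure D3:**
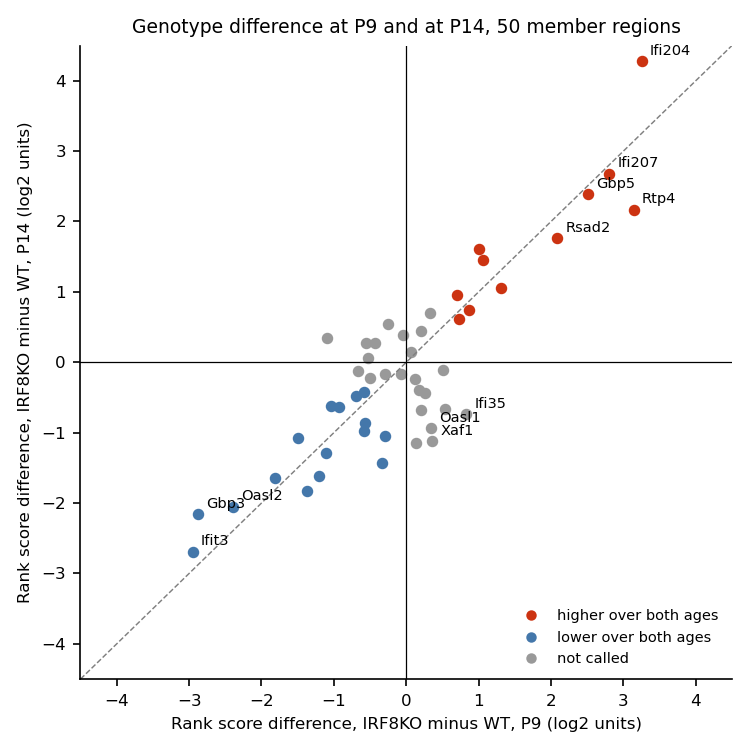
Each point is a tested member region, with its rank score difference (IRF8KO minus WT, log2 units) at P9 on the x axis and at P14 on the y axis. Leading regions have the same sign at both ages, for example Ifi204 at 3.25 and 4.28 and Ifit3 at −2.95 and −2.69. They were picked by their mean difference over both ages, which favours the same sign at each. Ifi35 has 0.83 at P9 and −0.74 at P14.

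Between P9 and P14, WT microglia had 0 member regions called by limma (0.0107% of all regions higher, 0.0453% lower), with 3 at an unadjusted p under 0.05 (8.03% of all regions). In IRF8KO, 0 were higher (2.31%) and 3 were lower at P14 (3.38%), at Oasl1 (−1, adjusted p = 0.032), Xaf1 (−1.01, adjusted p = 0.035) and Ifi35 (−0.95, adjusted p = 0.05 as rounded). The Xaf1 promoter ranked 11689, 14074 and 11958 at P9 and 20308 and 31437 at P14. These 3 calls became 0 without any one of WT P9 replicates 1 and 2, IRF8KO P9 replicates 1, 2 and 3 and WT P14 replicates 1 and 2, 1 without IRF8KO P14 replicate 2 and 5 without IRF8KO P14 replicate 1. The 3 are 6.0% of the member regions.

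**Figure D4:**
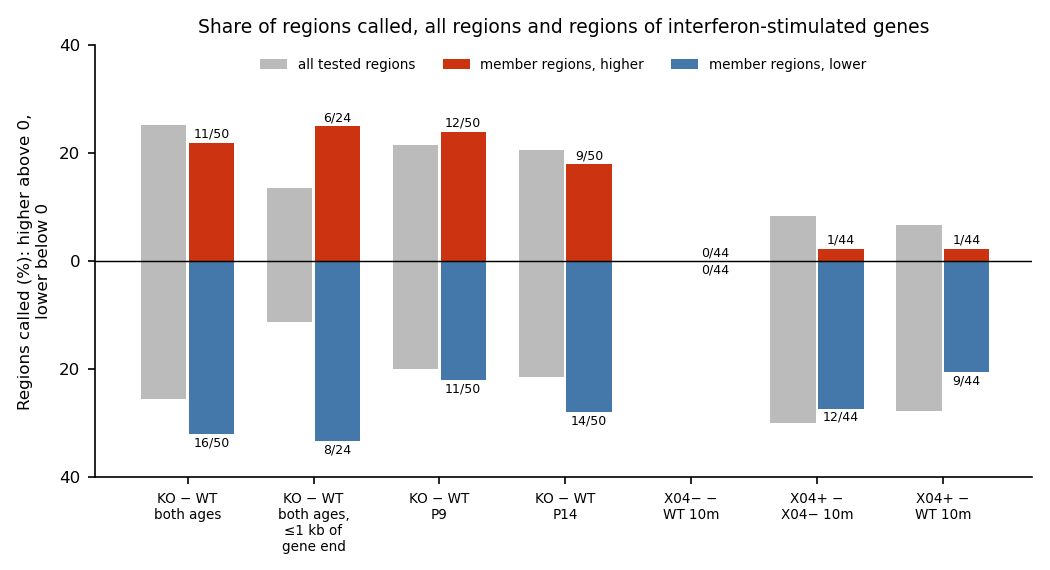
Share of regions called by rank score (percent, higher above 0 and lower below 0) among all tested regions and among member regions for each comparison. For IRF8KO against WT over both ages the member bars reach 22% and 32.0% beside 25.3% and 25.5% of all regions, and for X04 positive against X04 negative microglia 2.27% and 27.3% beside 8.34% and 29.9%.

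At 10 months, 44 member regions in 28 genes were tested among 32032 regions, and the 3 comparisons share libraries. Between X04 negative 5xFAD and WT microglia limma called no member region (0 higher against 0.0624% of all regions, 0 lower against 0.05%), with 3 members at an unadjusted p under 0.05 (4.61% of all regions). The ranks lay above WT in both libraries at 15 regions (34.1%, against 21.7% of all regions), below at 6 (13.6%, against 22.1%) and overlapped at 23, and the median difference was 0.18 for members and −0.01 for all regions. An exact permutation test of 2 against 2 cannot go below p = 0.33.

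The largest of these differences were at genes named above. The Ifit3 promoter ranked 3843 and 2430 in WT and 1146 and 1195 in X04 negative microglia, a difference of 1.38 (adjusted p = 1.0). The Rsad2 start-site region ranked 118069 and 49998 in WT and 22571 and 27075 in X04 negative microglia (1.64, adjusted p = 0.85), and was strong in the latter alone. Gbp7 ranked 5116 and 5694 against 1831 and 3150 at its promoter, and Igtp, which went the other way, 11074 and 7148 against 15621 and 17546. Fitted without the X04 positive libraries, an alternative chosen after seeing the data, 275 regions were higher and 110 lower of 29046. The 43 members tested again gave 0 calls, with lowest adjusted p values of 0.1 for Ifit3 (1.38 ± 0.41) and Rsad2 (1.64 ± 0.49). In that fit the Mx1 region, at ranks 9193 and 8834 in WT and 4003 and 2891 in X04 negative microglia, differed by 1.41 ± 0.36 (adjusted p = 0.046).

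X04 positive microglia had fewer strong member regions, 22 and 32, than X04 negative (40 and 43) or WT microglia (35 and 37). Among the 30000 top peaks, 27548 and 27559 summits had any gene in X04 positive libraries, against 28593 to 28779 in the other libraries of this age. The X04 positive libraries also stood apart: the −log10 p at rank 30000 was 6.04 and 6.29, against 18.63 to 24.3 in the other libraries of this age. Strong regions of 10 neuronal marker genes summed to 18 and 26 in them and to 4 to 6 in the others, with Gad1 at 0, while those of microglia markers summed to 26 and 32 against 49 to 55. The part of these in the following results was not tested.

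Against X04 negative cells, 12 member regions in 10 genes were lower (29.9% of all regions) and 1 higher (8.34%) of 44. Against WT, 9 in 8 genes were lower (27.8%) and 1 higher (6.73%). The lower shares of members, 27.3% and 20.5%, were below those of all regions. Medians over all regions were −0.92 and −0.87, and those of members lay 0.51 and 0.38 below these. Over the 10118 regions within 1 kb of a gene end the medians were 0.27 and 0.1. How members compare thus depends on the regions they are set against. After quantile normalisation, chosen after seeing the data, the calls over all regions went from 2672 higher and 9588 lower to 3871 and 3086 against X04 negative cells, and from 2156 and 8903 to 3138 and 2265 against WT, while lower members went from 12 to 3 and from 9 to 2.

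The count of 12 was 5 and 7 without X04 negative replicates 1 and 2 and 28 and 23 without X04 positive replicates 1 and 2. The count of 9 was 5 without WT 10m replicate 2 and 25 and 19 without X04 positive replicates 1 and 2. The calls described here therefore rest on how these few libraries vary.

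Gbp3 had the largest fall, at the region past the gene that was also lower in IRF8KO. It ranked 8642 and 7566 in WT, 7038 and 8025 in X04 negative and 65295 and 79465 in X04 positive microglia (−3.26 ± 0.41 against X04 negative, adjusted p = 0.0039). The Rsad2 region 3.84 kb from the start site ranked 31745 and 24613 in WT, 21058 and 17764 in X04 negative, and 117555 and nowhere within 200 bp in X04 positive microglia (−2.65 ± 0.32, adjusted p = 0.0039). Both regions separated X04 positive cells from the other groups without overlap. The Ifi207 region 659 bp from the start site fell by 2.77 ± 0.46 (adjusted p = 0.0058), and the start-site region of Rsad2 by 1.98 ± 0.46 (adjusted p = 0.02).

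Ddx58 (the region past the gene), Oasl1 and Parp14 were strong in both X04 negative libraries and absent from both X04 positive libraries, 3 of 39 eligible regions against 8.64% of all. In WT and X04 negative cells the Ddx58 region ranked 24562 to 40110, the Oasl1 region 21163 to 34863 and the Parp14 region 23794 to 35777. No member was higher by this rule against X04 negative cells (0.805%), nor higher or lower against WT (0.696% and 8.51%, 32 eligible members). At Zbp1, a region ranked 30348 and 19958 in WT and 29156 and 53418 in X04 negative cells and had no summit within 200 bp in X04 positive cells (−1.68 ± 0.38 against X04 negative, adjusted p = 0.018). The Ifi204 region 42.4 kb from the gene ranked 1111 and 1815 in X04 negative, 6224 and 6373 in X04 positive and 3781 and 2670 in WT cells (−2.15 ± 0.38 against X04 negative, adjusted p = 0.0076). The Ifit3 promoter ranked 9197 and 3663 in X04 positive cells, lower than in X04 negative cells (−2.31 ± 0.52, adjusted p = 0.017), whereas the difference from WT was −0.93 ± 0.52 (adjusted p = 0.21). The one region called higher was inside Stat2, 13.4 kb from its start site, at ranks 10490 and 20424 in X04 positive cells, 83561 and 83627 in WT and 112489 and nowhere within 200 bp in X04 negative cells. Its only strong libraries were the 2 X04 positive ones, so it entered the test through the group where it scored higher, and its ranks are given as a description. The same held for 2 of the 12 regions lower against X04 negative cells, at Parp14 and the Rsad2 start site, which were strong in X04 negative libraries alone.

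**Figure D5:**
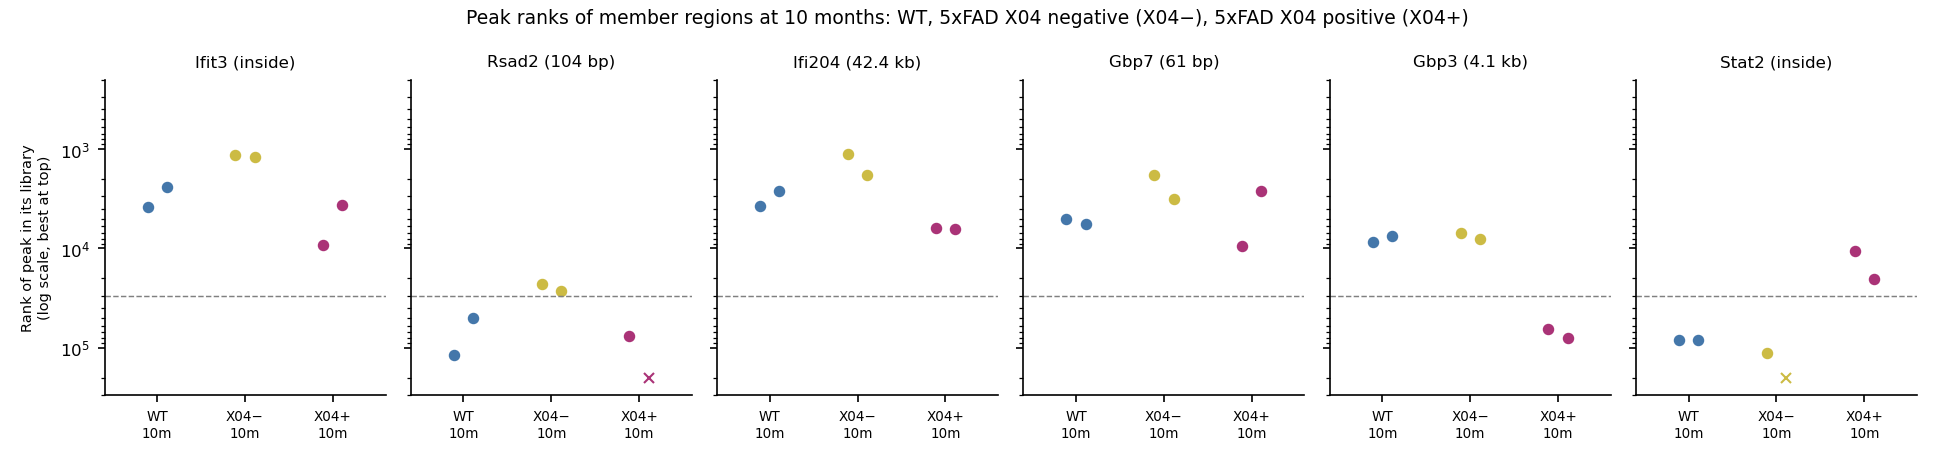
Rank of the peak in each library at 10 months (log scale, best at the top, dashed line at rank 30000, crosses for no summit within 200 bp among the 126070 top peaks) for leading member regions. The Ifit3 promoter is at 1146 and 1195 in X04 negative, 2430 and 3843 in WT and 3663 and 9197 in X04 positive microglia.

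The rest of the pathway also moved both ways between IRF8KO and WT over both juvenile ages. Regions of the interferon genes themselves gave 4 higher and 1 lower of 16 tested, with Ifnb1 at 1.83 ± 0.16, Ifng at 1.16 ± 0.21 and Ifna1 at −0.61 ± 0.20. Receptor genes had 14 higher and 8 lower of 40, including a gain of 2.26 ± 0.17 at Ifnar1, a subunit of the type I receptor, and calls of 2.70 ± 0.19 and −2.38 ± 0.15 at separate regions of Ifngr1, a subunit of the interferon gamma receptor.

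Genes of the signal transducers gave 9 higher and 10 lower of 36. Regions of the kinase gene Jak2 (1.91 ± 0.18) and of Irf1 (1.85 ± 0.20) were higher, and regions of the kinase genes Tyk2 (−3.24 ± 0.16) and Jak1 (−1.76 ± 0.20) and of Stat3 (−1.64 ± 0.17) were lower. The inhibitors of the pathway had 2 higher and 8 lower of 35, with Socs3, a suppressor of cytokine signalling, at −0.97 ± 0.20. Genes that sense microbes and induce interferon had 5 higher and 15 lower of 35, the lower ones including Tlr4 (−3.09 ± 0.20), Tlr7 (−2.26 ± 0.18) and the adaptor gene Mavs (−2.07 ± 0.16). Read against 25.3% and 25.5% of all regions, the last list had the largest share of lower calls among these 5 lists and the receptors the largest share of higher calls.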

How the data were processed

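Per the labels' protocols, microglia were isolated without enzymes, sorted by FACS, and their nuclei tagmented with the Nextera kit. Per the submitters' processing notes, bcl2fastq, Bowtie2, MACS2 2.2.7.1 and deepTools were used with mm10; order and settings are not given in the sources used here. The authors deposited 1 list of called peaks per library, with 126070 to 194399 summits, holding the fold enrichment (a ratio), −log10 p and −log10 q, and the summit's offset in bp. Counting intervals are not given, since read counts and depth were not analysed here.

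Regions were summits of the 30000 top peaks of any library by −log10 p (ties broken by fold), on chromosomes 1 to 19 and X, taken from the best rank and more than 400 bp apart. A library's rank for a region was its best peak with a summit within 200 bp. Of all regions 91.3% had a gene. Genes and promoters came from RefSeq tables of GRCm38.p6, which give no exons, and gene bodies carry no strand; no genome sequence was used. Rank scores were fitted with limma 3.58.1 (R 4.3.3, moderated variance with trend) on regions strong in at least 2 fitted libraries, juvenile and 10-month libraries apart, and adjusted over all regions by the Benjamini-Hochberg method (threshold 0.05). The fit was tested on simulated data. Other steps used Python 3.11.15, numpy 2.4.6, pandas 2.3.3, scipy 1.17.1 and matplotlib 3.10.9.

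The members, their roles and the other gene lists were chosen with earlier results of these data known. Members with a called region are given with ranks per library or ranges, others by counts and ranges, and up to 3 genes per list and direction are named for the pathway. Sequences are of promoters that hold a called or best ranked member region. Alternatives were 20000 or 50000 top peaks, ranking by the authors' fold, a summit within 400 bp, genes within 20 kb, summits given to every gene body that holds them, scores ending at rank 60000, a replicate block, all 15 libraries in one fit, library weights, an exact permutation test, and each library left out. Single values of some genes on the lists are not reported here.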

Additional observations from a re-analysis of the deposited data

How the results depend on the processing

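Of the 27 regions called between IRF8KO and WT, 22 kept their call in every fit without 1 library that tested them. Among these 22, the Gbp2 region 54 bp from its start site and the second Usp18 region were tested in only 7 of 9 such fits. Under every alternative that tested them, 14 kept their call. The Ifi207 region 659 bp from the start site went from 1.26 to −0.58 and the Gbp7 promoter from −0.79 to 0.82 when ranked by the authors' fold; the cause was not tested. Quantile normalisation, the added Mx1 and Mx2 bodies and the fit without X04 positive libraries were chosen after seeing the data. Counts not named below stayed within a factor of 1.5 under the alternatives; genes within 20 kb, a 400 bp match, every gene body, an end at rank 60000 and the Mx bodies moved none.

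With 20000 top peaks, which leaves fewer regions to test, member regions higher in IRF8KO over both ages were 7, lower by presence 1, and strong against absent 0 at P9 and 0 at P14. X04 positive calls were then 0 higher and 5 lower against X04 negative and 0 and 3 against WT, with 0 lower by strong against absent, and summed strong regions of IRF8KO at P14 minus P9 were −2.17 (main value −1.17). With 50000, higher calls were 24 over both ages, 20 at P9 and 20 at P14, strong against absent 3 and 3. X04 positive calls were 2 higher and 19 lower against X04 negative and 2 and 15 against WT, and by strong against absent 1 and 7, and 1 and 5. Summed strong regions then differed by 4.75 over both ages, 6 at P14, 1.5 for IRF8KO between ages, −1 for X04 negative and −15 for X04 positive minus WT, where 30000 gave 2.08, 2, −1.17, 5.5 and −9. Ranked by the authors' fold, 15 were higher at P14, the interaction gave 1 higher and 2 lower, IRF8KO between ages 1 and 1, strong against absent 2 higher at P9 and 1 lower for X04 positive against WT, and sums differed by 4.5 over both ages, 4 at P9, 5 at P14 and 3.5 for X04 negative minus WT.

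With all 15 libraries in one fit, 58 member regions were tested among 43164. Members lower were 7 at P9, 9 at P14 and 0 in IRF8KO between ages, against 6216, 6130 and 220 of all regions. In X04 positive microglia 31 and 25 members were lower against X04 negative and WT, where 19014 and 17868 of all regions were. Library weights gave 0 for IRF8KO between ages, where 369 of all 37507 regions were higher and 544 lower. Quantile normalisation gave 1 higher there, against 1113 of all regions. It gave 2 higher and 3 lower for X04 positive against X04 negative (3871 and 3086 of all 32032 regions), and 2 lower against WT (2265). The replicate block gave 0 lower for IRF8KO between ages (3 without it), against 234 of all regions. Deviations of same-numbered libraries had correlations of −0.04 to 0.02. With 2 or 3 libraries per group these cannot tell whether such libraries share animals or a preparation. The labels do not say so either, and nothing was paired.

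With each library left out, the counts ranged as follows: lower at P14 9 to 14; interaction 0 to 1 higher and 0 to 2 lower; IRF8KO between ages 0 to 1 higher and 0 to 5 lower; presence 0 to 7 higher and 0 to 5 lower. X04 positive against X04 negative gave 0 to 1 higher and 5 to 28 lower, and against WT 0 to 2 higher and 5 to 25 lower. Strong against absent gave 0 to 1 higher and 4 to 13 lower, and 0 to 1 higher and 1 to 7 lower, in these comparisons. Where a group kept 1 library, it was taken to vary like the others.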

Other observations

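The catalogued regions of the set differed in how widely they were strong. Both Trim30a start-site regions and those of Ifit2, Ifit3, Gbp7 and Igtp were strong in all 15 libraries, as was the Ifi27 region. The best ranked member region was Ifit3 in the 4 juvenile WT libraries (ranks 1397, 733, 338 and 811), and Trim30a or Ifi204 in the 5 juvenile IRF8KO libraries (1648, 1733, 1475, 1518 and 1899). At 10 months it was Trim30a (2854) and Ifit3 (2430) in WT, Ifi204 (1111) and Ifit3 (1195) in X04 negative, and Trim30a (3723) and Gbp7 (2627) in X04 positive microglia.

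Regions at member start sites that the rule gave to neighbouring genes, chosen after their values were seen, were strong in 9 to 15 libraries. The Cxcl10 start-site region ranked 17876 and 24511 in WT and 37065, 31906 and 31249 in IRF8KO at P9, and 27600 and 22247 against 28038 and 35593 at P14. In X04 negative microglia it ranked 19791 and 21694, in WT of that age 29966 and 26860, and in X04 positive microglia 66903 with no summit within 200 bp in the other library. At Ifit1 the region ranked 6420 and 9357 in X04 negative, 10437 and 17904 in WT and 31997 and 47868 in X04 positive microglia. The Stat2 start-site region stayed between ranks 845 and 2972 in all 15 libraries.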
